A study of Mus musculus with 9 samples.

Results

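Transcript levels in ligated mouse hearts that received implanted cells named FOXO3-GE-MPCs were compared with those in hearts that had the ligation alone. Of the 9 libraries in the study, 6 enter this comparison, 3 with ligation and 3 with ligation and cells, and they were taken by the treatment that the labels give. All animals were NOD-SCID mice, an immunodeficient strain that lacks mature T and B lymphocytes but keeps macrophages and neutrophils. RNA came from the border zone of the infarct, the tissue next to the muscle that dies when its coronary artery is tied off. The 3 libraries from sham-operated hearts are given beside the results as a reference level. The labels do not state the age or sex of the mice, the time after surgery or the dose of cells. The files name vehicle for the hearts with ligation alone, which the labels do not mention. What is known of the study, though not from the labels, is that the implanted cells were human mesenchymal progenitor cells engineered in the FOXO3 gene. No group with unmodified cells is among these libraries, so the presence of cells, their FOXO3 edit and the implantation itself cannot be told apart. The source field of 2 of the 3 cell libraries names another FOXO member, while the title and the treatment of both name FOXO3, which was followed.

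After a coronary ligation, monocytes and macrophages enter the heart and clear dead tissue, show antigen on MHC class II molecules and release chemokines. Surviving cardiomyocytes shift from fatty acid use towards a fetal gene programme, and fibroblasts lay down matrix. Immediate-early genes are transcribed within minutes of a stimulus, and heat shock proteins are chaperones that keep other proteins folded.

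Gene counts per library ran from 4549268 to 7515052 with ligation and from 6734105 to 7041705 with cells. The share of mitochondrially encoded genes was 12.55% to 13.92% with ligation and 14.28% to 14.34% with cells, and the share of reads outside annotated genes was 4.60% to 4.91% with ligation and 4.14% to 4.35% with cells. The labels do not say that libraries came from separate animals, so p-values measure the spread between these libraries, which may be technical. The file headers of ligation replicates 2 and 3 share a name stem, as do those of sham replicates 1 and 2. With both pairs summed, each into 1 library, the number of genes called was 1101 in place of the 1365 given next. Cardiac contractile genes summed to 70441 to 73386 CPM with ligation and 72296 to 73946 CPM with cells. CPM is a gene's count relative to the total of its library after TMM scaling, on the usual CPM scale, and errors are SDs over 3 libraries.

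Implanted hearts had lower transcript levels of macrophage, antigen presentation, chemokine and mitotic genes, and higher levels of immediate-early, heat shock, atrial, ion channel and fatty acid genes. Of 13825 genes tested, 1365 (9.87%) were called, that is, passed an adjusted p of 0.05 in edgeR's quasi-likelihood test. Of all genes tested, 4.19% were called higher with cells (579 genes) and 5.69% lower (786 genes). Leaving out 1 library at a time gave 364 to 531 higher and 587 to 721 lower. Decreases were larger, with a median size of 0.60 on the log2 scale against 0.34 for increases, and 260 genes fell at least 2-fold while 54 rose at least 2-fold. With library totals in place of TMM factors 436 genes were higher and 927 lower, 32.0% higher against 42.4%, and the median gene moved by -0.03 on the log2 scale. The 42 gene lists used here hold 954 tested genes, of which 131 were higher and 198 lower. A list is described by how many of its tested members were called, to be read against these shares of all genes, and by its median log2 fold change, which was 0.0020 over all genes.

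**Figure D1:**
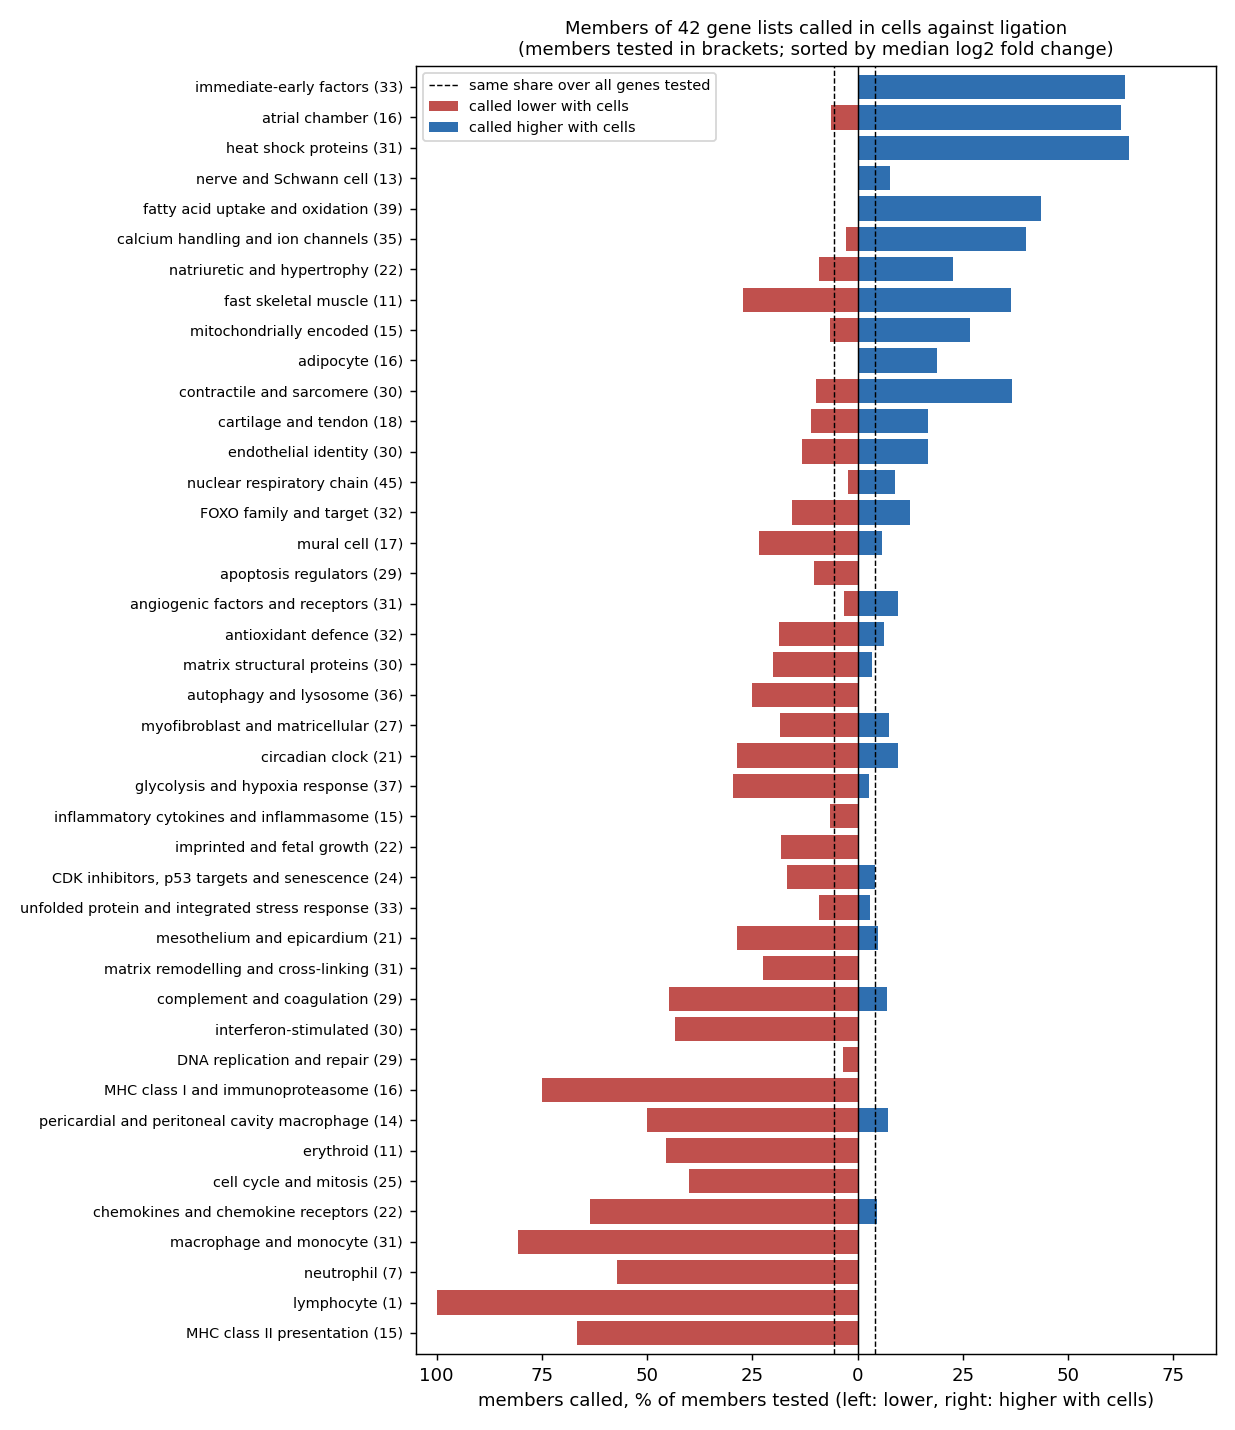
Members of each of 42 gene lists called lower (red, left) or higher (blue, right) with cells than with ligation, as a percentage of the members tested, which are counted in brackets; dashed lines mark 5.69% lower and 4.19% higher over all genes. Macrophage, MHC class I and class II and chemokine lists reach furthest to the left among lists of more than 10 tested members, and heat shock, immediate-early and atrial lists furthest to the right.

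**Figure D2:**
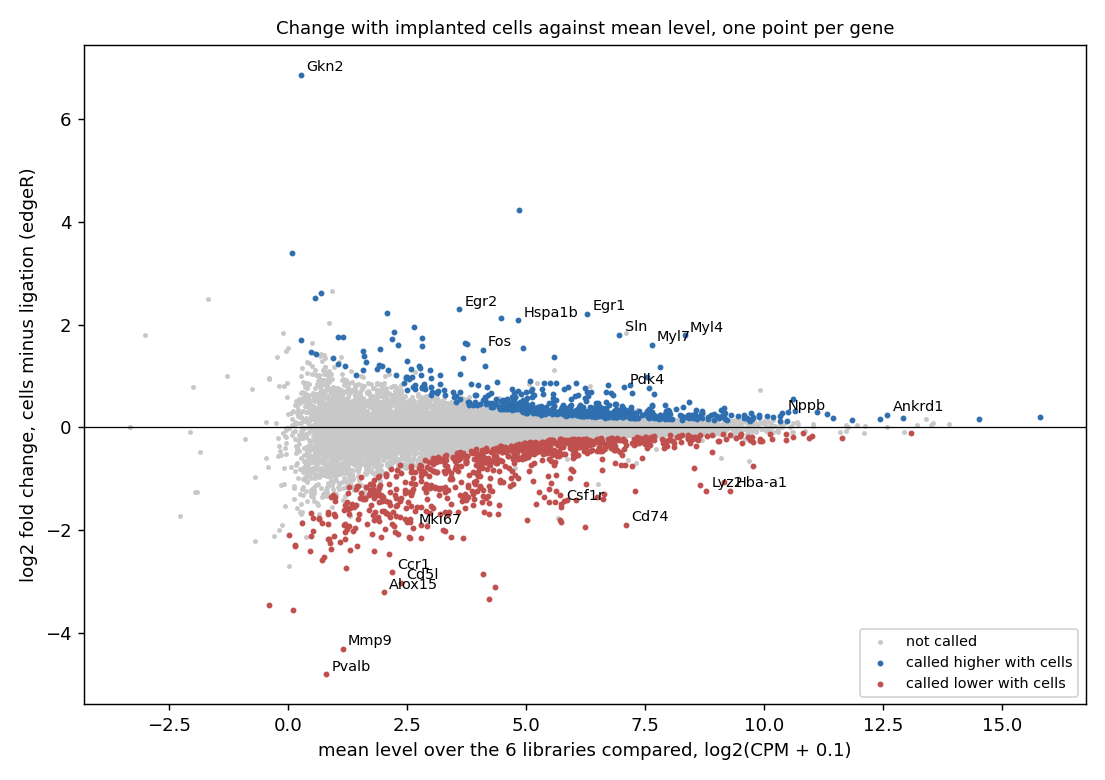
Log2 fold change of cells against ligation for each of 13825 genes (vertical axis) against its mean level over the 6 libraries compared (horizontal axis, log2 of CPM plus 0.1). Red and blue points are the 786 genes called lower and the 579 called higher; Gkn2 at the top had 0 counts in all ligation libraries, so its height is no measured fold.

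Macrophage and monocyte genes were lower with cells: 25 of 31 tested members fell, 0 rose, and the list's median was -1.24. Csf1r (ENSMUSG00000024621), the receptor for the growth factor on which macrophages depend, was at 77.6, 76.4 and 79.6 CPM in the 3 ligation libraries and at 29.9, 25.2 and 28.1 CPM with cells (a log2 fold change of -1.49, SE 0.0838, adjusted p 7.77e-11). Adgre1 (ENSMUSG00000004730), which encodes the F4/80 surface antigen, went from 35.6, 28.2 and 32.9 to 8.94, 11.4 and 9.36 CPM (a log2 fold change of -1.69, SE 0.138, adjusted p 3.25e-08). In both genes every cell library lay below every ligation library and below the sham mean, which was 50.04 CPM for Csf1r and 15.4 CPM for Adgre1. Lyz2, the lysozyme of myeloid cells, fell 2.37-fold, from 618 ± 19.3 to 261 ± 6.66 CPM (SD, n = 3), with 32.8% of its 31-mers shared with other genes. Among the called members of the list, 2 scavenger receptors fell furthest. Marco was at 12.4, 11 and 10.1 CPM with ligation and 2.41, 2.08 and 2.88 with cells (a log2 fold change of -2.17, SE 0.264, adjusted p 9.11e-06), and Msr1 at 16.8, 14.6 and 15.2 with ligation and 4.4, 3.05 and 4.03 with cells (a log2 fold change of -2.01, SE 0.1995, adjusted p 5.38e-07). Sham hearts had almost no Marco, at 0.214 CPM, but 12.04 CPM of Msr1, so implanted hearts kept part of the Marco signal and dropped under sham for Msr1.

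Genes of tissue-resident macrophages and of infarct macrophages were both among those that fell. Mrc1, a mannose receptor of resident cells, went from 69.2 ± 7.9 to 29.1 ± 2.56 CPM (a log2 fold change of -1.24, SE 0.0919, adjusted p 7.62e-09), and Lyve1, a hyaluronan receptor also made by lymphatic vessels, from 54.00 ± 3.47 to 34.9 ± 5.18 CPM (a log2 fold change of -0.62, SE 0.101, adjusted p 0.000284). Trem2, a lipid receptor of macrophages that clear debris, fell 2.33-fold (a log2 fold change of -1.22, SE 0.145, adjusted p 6.43e-06), and Spp1, the secreted protein osteopontin, fell 2.03-fold (a log2 fold change of -1.02, SE 0.12, adjusted p 5.6e-06). Gpnmb, a glycoprotein of lipid-laden macrophages, did not pass: it was at 31.96, 29.2 and 24.8 CPM with ligation and 26.4, 26.2 and 24.3 with cells, overlapping ranges, with an adjusted p of 0.497 by edgeR. Summed over the list, the macrophage signal was 1797 to 1858 CPM with ligation, 779.9 to 807 CPM with cells and 1087 to 1124 CPM in sham. In bulk tissue, fewer macrophages and less of these RNAs per macrophage cannot be told apart.

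**Figure D3:**
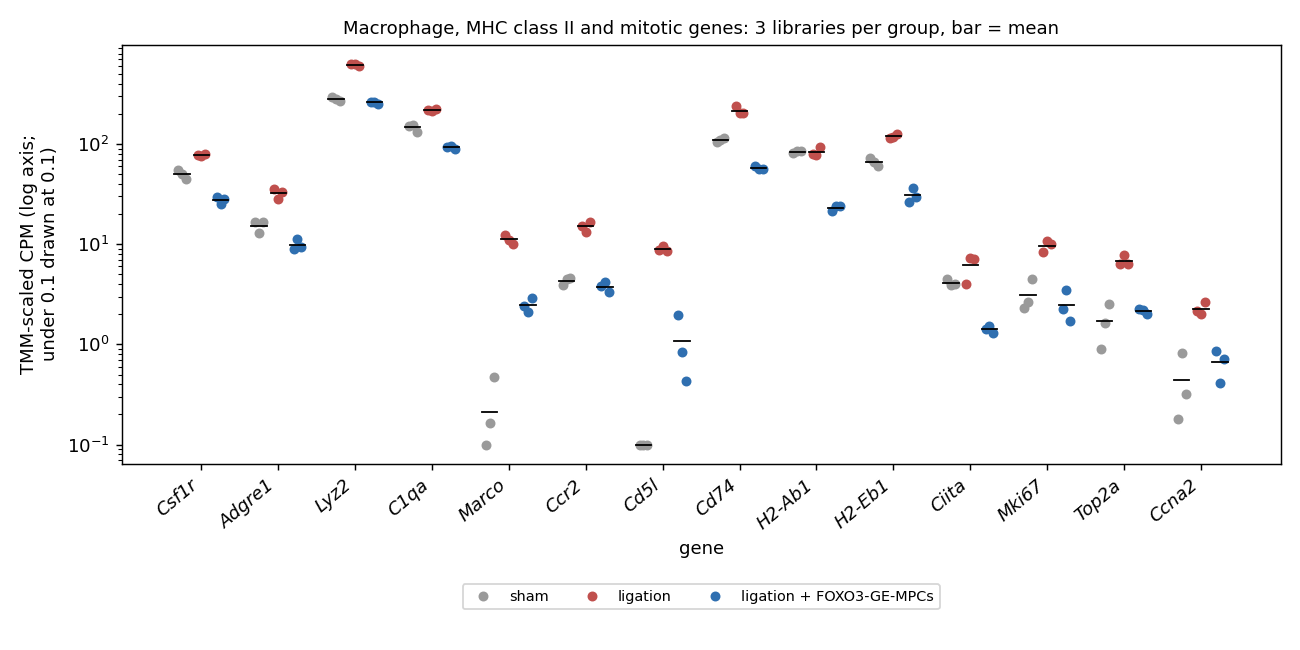
Level of 14 macrophage, MHC class II and mitotic genes in each library (TMM-scaled CPM, logarithmic axis), in sham (grey), ligation (red) and ligation with FOXO3-GE-MPCs (blue); short bars are means of 3 libraries and values under 0.1 are drawn at 0.1. For every gene shown the 3 blue points lie below the 3 red points, and for Csf1r, Adgre1, Lyz2, C1qa, Cd74, H2-Ab1, H2-Eb1 and Ciita they also lie below the grey ones.

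MHC class II genes, which present antigen to helper T cells, fell by more than any other list with over 10 tested members by median (-1.63): 10 of 15 tested members were lower and 0 higher. Cd74 (ENSMUSG00000024610), the invariant chain that guides class II molecules, was at 239, 203 and 204 CPM with ligation and 60.99, 56.2 and 55.9 CPM with cells (a log2 fold change of -1.90, SE 0.072, adjusted p 3.24e-13). The class II beta chains H2-Ab1 (79.5, 77.8 and 92.6 against 21.3, 24.00 and 24.2 CPM) and H2-Eb1 (115, 117 and 125 against 26.5, 36.1 and 29.8 CPM) fell by 1.85 and by 1.95 in log2 units (edgeR adjusted p 2.75e-12 and 3.71e-12). Ciita, the coactivator that switches class II genes on, went from 4.05, 7.24 and 7.13 to 1.42, 1.53 and 1.3 CPM (a log2 fold change of -2.14, SE 0.307, adjusted p 6.89e-05). Each of these 4 genes was lower in every cell library than in every ligation and every sham library. Sham hearts held 83.8 CPM of H2-Ab1, about the level of the ligation libraries, and 109.5 CPM of Cd74. The macrophage signal given above moved with the class II genes, and its part in their decrease was not tested.

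MHC class I genes and the immunoproteasome cut, load and show peptides. Of 16 tested members 12 were lower and 0 higher, with a median of -0.33, and only 1 fell at least 2-fold. That gene was the peptide transporter Tap1, at 51.6, 44.7 and 47.5 CPM with ligation and 24.8, 21.6 and 22.9 CPM with cells (a log2 fold change of -1.04, SE 0.101, adjusted p 4.2e-07). Psmb9 and Psmb8, catalytic subunits of the immunoproteasome, fell 1.44-fold and 1.42-fold (edgeR adjusted p 0.000945 and 0.00229). B2m, the chain shared by class I molecules, fell from 1059 ± 53.8 to 876 ± 30.4 CPM (a log2 fold change of -0.27, SE 0.0463, adjusted p 0.000416). Sham hearts had more of Tap1, Psmb9 and Psmb8 than ligated hearts, at 78.7, 71.9 and 65.2 CPM, so for these genes the implanted hearts lay farther from sham than the hearts with ligation alone. The macrophage and erythroid sums moved with the class I list, and their part was not tested.

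Interferon-stimulated genes are switched on against viruses. Of 30 tested members 13 were lower, 0 higher and 17 not called (median -0.25). Igtp, an immunity-related GTPase, was at 304, 339 and 346 CPM in sham, 90.6, 75.97 and 86.1 with ligation and 28.4, 33.2 and 33.3 with cells (a log2 fold change of -1.41, SE 0.0833, adjusted p 1.86e-10 for cells against ligation). The 3 groups did not overlap. Of its 31-mers 15.9% also occur in another gene. Gbp2, a guanylate-binding protein, was at 115 ± 4.03, 78.8 ± 5.57 and 44.6 ± 2.42 CPM in the same order (a log2 fold change of -0.82, SE 0.0718, adjusted p 1.02e-07), and Irgm1 at 124 ± 3.13, 60.00 ± 3.71 and 37.4 ± 3.005 CPM (a log2 fold change of -0.68, SE 0.0762, adjusted p 2.82e-06). Zbp1, a sensor of nucleic acids, departed from that order, with 12.4 ± 1.66 CPM in sham, 14.1 ± 1.28 with ligation and 7.12 ± 1.41 with cells (a log2 fold change of -0.97, SE 0.173, adjusted p 0.000702). The macrophage and erythroid sums moved with these genes too, and their part was not tested.

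Among chemokines and their receptors 14 of 22 tested members fell and 1 rose (median -1.01). Of the receptors, Ccr1 was at 7.88, 7.96 and 7.63 CPM with ligation and 0.993, 1.39 and 0.864 CPM with cells (a log2 fold change of -2.83, SE 0.289, adjusted p 7.97e-07), and Ccr2, the receptor that marks monocytes called in from blood, at 15.3, 13.2 and 16.6 CPM with ligation and 3.83, 4.16 and 3.31 with cells (a log2 fold change of -1.99, SE 0.191, adjusted p 3.71e-07). Of the ligands, the monocyte attractant Ccl8 fell 4.47-fold and the B cell attractant Cxcl13 fell 4.41-fold, from 20.9 ± 1.64 to 4.66 ± 0.561 CPM and from 17.3 ± 1.08 to 3.9 ± 1.11 CPM (edgeR adjusted p 1.15e-08 and 4.67e-07). For Ccr2 and Ccl8 the cell libraries came down to about or below the sham levels of 4.32 and 7.41 CPM. Ccl2, the main ligand of Ccr2, did not pass, at 4.47, 7.67 and 5.75 CPM with ligation and 7.09, 4.58 and 5.62 CPM with cells (adjusted p 0.89 by edgeR). The 1 member that rose was Ackr3, a scavenging receptor for CXCL12 (a log2 fold change of 0.39, SE 0.0667, adjusted p 0.000473). Of 25 cytokine and inflammasome genes 15 could be tested and 1 fell, a share near the 5.69% lower over all genes. It was the alarm cytokine Il33, from 52.7 ± 2.84 to 38.2 ± 1.42 CPM (a log2 fold change of -0.46, SE 0.0794, adjusted p 0.000468). Il6 was at 1.49, 2.32 and 2.0 CPM with ligation and 0.851, 0.555 and 0.864 with cells and did not pass (adjusted p 0.0625 by edgeR), and Tnf, Il1b and Nlrp3 had too few counts to be tested. The macrophage sum moved with the chemokine list, as did the erythroid sum (1579.5 to 1668 CPM with ligation and 716 to 742 with cells), and their part was not tested.

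Complement and coagulation genes fell in 13 of 29 tested members and rose in 2 (median -0.23). The C1q chains that start the classical pathway were among them: C1qa went from 220.3, 213 and 224 to 92.6, 96.4 and 88.9 CPM (a log2 fold change of -1.24, SE 0.0627, adjusted p 1.49e-11) and C1qb from 141 ± 3.91 to 53.4 ± 3.85 CPM (a log2 fold change of -1.40, SE 0.0658, adjusted p 3.9e-12). C3ar1, the receptor for the C3a fragment, fell 3.14-fold (a log2 fold change of -1.65, SE 0.145, adjusted p 9.78e-08), and Cfp, properdin of the alternative pathway, fell 2.59-fold (a log2 fold change of -1.37, SE 0.154, adjusted p 3.12e-06). C1qa, C1qb and C1qc are also in the macrophage list, so both counts share them. In the autophagy and lysosome list 9 of 36 fell and 0 rose, led by the macrophage cathepsin Ctss (70.98 ± 4.32 to 25.9 ± 1.63 CPM, a log2 fold change of -1.45, SE 0.0805, adjusted p 6.43e-11). The macrophage sum moved with these lists too, and its part was not tested.

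Markers of macrophages from the pericardial and peritoneal cavities fell in 7 of 14 tested members and rose in 1. Alox15, a lipid-oxidising enzyme, had 0 counts in every sham library, 5.97, 8.25 and 7.13 CPM with ligation and 0.851, 0.555 and 0.864 CPM with cells (a log2 fold change of -3.22, SE 0.352, adjusted p 4.79e-06). Cd5l, a secreted macrophage protein, also had 0 counts in sham and went from 8.74, 9.69 and 8.63 to 1.99, 0.832 and 0.432 CPM (a log2 fold change of -3.03, SE 0.364, adjusted p 1.47e-05). Both transcripts were near the detectable level in cell libraries, where 3 counts equal 0.416 to 0.432 CPM. Vsig4, a complement receptor, fell 3.46-fold (a log2 fold change of -1.79, SE 0.321, adjusted p 0.000739), while Saa3, an acute-phase protein that other cells also make, rose from 14.7 ± 0.654 to 23.3 ± 1.33 CPM (a log2 fold change of 0.67, SE 0.133, adjusted p 0.00193).

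Neutrophil markers were low in all hearts. Of 18 markers 7 could be tested, and 4 fell. S100a9, a calcium-binding protein of neutrophils, was at 21.2, 18.5 and 17.5 CPM in sham, 3.84, 5.93 and 5.13 with ligation and 1.84, 2.5 and 1.73 with cells (a log2 fold change of -1.31, SE 0.26, adjusted p 0.00191). Mmp9, a gelatinase that neutrophils release, held 82 counts over the ligation libraries and 4 over the cell libraries (a log2 fold change of -4.32, SE 0.562, adjusted p 2.11e-05). Csf3r, the receptor for granulocyte colony-stimulating factor, fell 3.97-fold (a log2 fold change of -1.99, SE 0.352, adjusted p 0.000656). Of 21 lymphocyte markers 20 had at most 12 counts in any library and were not tested, and 6 of them had 0 counts throughout, among them Ms4a1, Cd3d and Rag1. The tested one, the immunoglobulin heavy chain Ighm, was at 13.6, 15.3 and 18.00 CPM with ligation and 6.52, 3.19 and 7.2 CPM with cells (a log2 fold change of -1.49, SE 0.215, adjusted p 7e-05).

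Red cell transcripts moved with the immune genes. Erythroid markers fell in 5 of 11 tested members and rose in 0 (median -0.94), and their sum was 951 to 999 CPM in sham, 1579.5 to 1668 with ligation and 716 to 742 with cells. Hba-a1, an alpha globin, went from 821, 875 and 925 to 363, 368 and 384 CPM (a log2 fold change of -1.23, SE 0.0521, adjusted p 9.35e-13), and the beta globin Hbb-bs from 553 ± 11.3 to 254 ± 2.02 CPM (a log2 fold change of -1.12, SE 0.0452, adjusted p 6.04e-13). Of the 31-mers of these globins 75.5% and 54.4% also occur in another gene, so the split between copies is uncertain. Slc4a1, the anion exchanger of red cells, is unique in sequence and fell 5.15-fold (a log2 fold change of -2.36, SE 0.454, adjusted p 0.00145). Blood held in the tissue can carry monocytes and neutrophils as well, and the part of blood content in the lower myeloid genes was not tested.

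Mitotic genes, which cells make while they divide, were lower with cells. Of 25 tested members of the cell cycle and mitosis list 10 fell and 0 rose, with a median of -0.96, while 15 members had too few counts to be tested. The promoters of members that fell are shown because 6 of the 8 with a RefSeq promoter match the letters of the cell cycle homology region (CHR), a short element found in late cell cycle genes. Only called members were counted, here and in the promoter searches further below. The shares therefore do not set called members apart from the rest of their list. The letters searched were TTTGAA on both strands, from 250 bases before to 50 after each annotated start, and 17.9% of all 32851 promoters hold them. Below are the 250 bases before the start of 3 of these genes, 5′ to 3′ on the coding strand, from RefSeq on build GRCm38.p6, with the matches in capitals.

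Mki67 (chr7:135716380-135716629, minus strand): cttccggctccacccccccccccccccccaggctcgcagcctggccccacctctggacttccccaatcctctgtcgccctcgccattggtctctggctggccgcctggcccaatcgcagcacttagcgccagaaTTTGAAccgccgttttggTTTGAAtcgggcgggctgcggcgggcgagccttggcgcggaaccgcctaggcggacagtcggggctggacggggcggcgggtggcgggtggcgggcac

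Top2a (chr11:99024190-99024439, minus strand): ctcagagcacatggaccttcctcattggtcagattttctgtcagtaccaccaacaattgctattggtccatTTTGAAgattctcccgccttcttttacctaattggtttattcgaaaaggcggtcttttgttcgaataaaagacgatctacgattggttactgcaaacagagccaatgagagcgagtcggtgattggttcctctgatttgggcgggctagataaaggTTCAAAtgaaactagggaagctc

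Ube2c (chr2:164769679-164769928, plus strand): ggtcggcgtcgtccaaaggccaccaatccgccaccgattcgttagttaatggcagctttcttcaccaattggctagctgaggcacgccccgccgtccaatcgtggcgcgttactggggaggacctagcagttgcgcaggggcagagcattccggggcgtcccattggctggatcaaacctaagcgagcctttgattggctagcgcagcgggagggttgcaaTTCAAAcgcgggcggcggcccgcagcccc

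Mki67 (ENSMUSG00000031004), the Ki-67 protein of dividing cells, was at 2.31, 2.64 and 4.44 CPM in sham, 8.31, 10.7 and 10 with ligation and 2.27, 3.47 and 1.73 with cells (a log2 fold change of -1.96, SE 0.277, adjusted p 5.78e-05 for cells against ligation). Top2a, the topoisomerase that untangles replicated DNA, went from 6.39, 7.81 and 6.38 to 2.27, 2.22 and 2.02 CPM (a log2 fold change of -1.66, SE 0.295, adjusted p 0.000677). Implanted hearts overlapped sham for Mki67, and no cell library reached the lowest ligation library in either gene. Ube2c, an enzyme of the complex that ends mitosis, fell from 3.63 ± 0.555 to 0.905 ± 0.681 CPM (a log2 fold change of -1.98, SE 0.468, adjusted p 0.00829), and Birc5, survivin, from 2.13 ± 0.237 to 0.471 ± 0.0728 CPM (a log2 fold change of -2.11, SE 0.488, adjusted p 0.0069). Ccna2, cyclin A2, fell 3.38-fold (a log2 fold change of -1.76, SE 0.464, adjusted p 0.0177) but was not called without ligation replicate 3 or without cell replicate 2 or 3. Cdk1, the kinase that drives mitosis, did not pass (2.42 ± 0.312 and 1.84 ± 0.384 CPM, adjusted p 0.559 by edgeR). Of 29 tested DNA replication and repair genes 1 was lower and 0 higher, with a median of -0.26. With 1 library left out 0 to 2 were lower, and with library totals 4. Pcna, the sliding clamp of replication, was at 36.9, 34.9 and 31.9 CPM with ligation and 36.6, 33.01 and 30.1 with cells (adjusted p 0.836 by edgeR). The dividing cells are not identified by these data, and the part of macrophages in the mitotic signal was not tested.

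Immediate-early genes rose. Of 33 tested members 21 were higher and 0 lower, with a median of 0.48. Many of them answer to serum response factor, which binds the CArG box, so promoters of members that rose were searched for that element on both strands. It was found in 3 of 18 such genes with a RefSeq promoter (Egr2, Srf and Zfp36) and in 1.81% of all 27025 genes with one. The cyclic AMP response element, TGACGTCA, was found in 2 of the 18 (Btg2 and Dusp1) and in 2.03% of all genes. The 250 bases before 1 annotated start of Egr2 and the start of Srf follow, from RefSeq on GRCm38.p6, with CArG boxes in capitals.

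Egr2 (chr10:67537619-67537868, plus strand): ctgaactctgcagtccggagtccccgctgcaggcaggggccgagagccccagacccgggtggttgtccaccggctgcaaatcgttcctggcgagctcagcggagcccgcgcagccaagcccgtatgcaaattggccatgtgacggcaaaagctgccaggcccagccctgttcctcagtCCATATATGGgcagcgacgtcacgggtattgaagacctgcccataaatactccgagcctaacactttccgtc

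Srf (chr17:46556163-46556412, minus strand): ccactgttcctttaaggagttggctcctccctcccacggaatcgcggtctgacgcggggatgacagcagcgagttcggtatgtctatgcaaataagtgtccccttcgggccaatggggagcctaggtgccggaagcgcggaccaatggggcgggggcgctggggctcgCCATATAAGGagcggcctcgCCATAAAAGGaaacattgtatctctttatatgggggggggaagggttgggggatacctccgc

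Egr1 (ENSMUSG00000038418), a zinc finger factor, was at 16.7, 22.2 and 16.2 CPM in sham, 26.00, 25.3 and 30.8 with ligation and 120, 134 and 129 with cells (a log2 fold change of 2.21, SE 0.0929, adjusted p 9.35e-13 for cells against ligation). Egr2 went from 3.41, 4.49 and 4.13 to 20.7, 20.3 and 19.2 CPM (a log2 fold change of 2.30, SE 0.199, adjusted p 8.23e-08) and Egr3 from 6.61, 6.95 and 5.5 to 20, 20.9 and 18.4 CPM (a log2 fold change of 1.65, SE 0.187, adjusted p 3.5e-06). All 3 EGR genes were thus higher with ligation than in sham by mean and higher again with cells, with no overlap between the ligation and cell libraries. Fos, a subunit of the AP-1 factor, rose 2.86-fold (10.01, 8.54 and 8.0 to 25.8, 23.9 and 25.2 CPM, a log2 fold change of 1.51, SE 0.139, adjusted p 1.84e-07). Its partners Jun and Junb rose less, 1.6-fold and 1.43-fold (edgeR adjusted p 3.55e-07 and 3.15e-05). The nuclear receptor Nr4a1 was at 26.8 ± 1.95 CPM with ligation and 69.00 ± 2.16 with cells (a log2 fold change of 1.36, SE 0.0815, adjusted p 2.15e-10), and the stress factor Atf3 at 10.5 ± 2.45 and 24.4 ± 1.59 CPM (a log2 fold change of 1.19, SE 0.153, adjusted p 1.82e-05). Klf2, a factor that vessel walls make under flow, and Dusp1, a phosphatase that ends MAP kinase signals, were higher in each cell library than in any ligation or sham library. Klf2 was at 122 ± 6.35, 106 ± 5.22 and 186 ± 6.94 CPM in sham, ligation and cells (a log2 fold change of 0.82, SE 0.0605, adjusted p 7.49e-09). Dusp1 was at 81.99 ± 4.97, 76.2 ± 7.49 and 135 ± 4.79 CPM in that order (a log2 fold change of 0.82, SE 0.0711, adjusted p 8.22e-08). Srf itself rose 1.19-fold (a log2 fold change of 0.26, SE 0.0694, adjusted p 0.0203) and was not called without ligation replicate 1 or 2 or without cell replicate 2 or 3. The endothelial sum was 6689 to 6820 CPM with ligation and 7100 to 7318.5 with cells. It moved with the immediate-early list, as did the atrial sum given below and the share of reads outside genes given above. Their part was not tested.

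**Figure D4:**
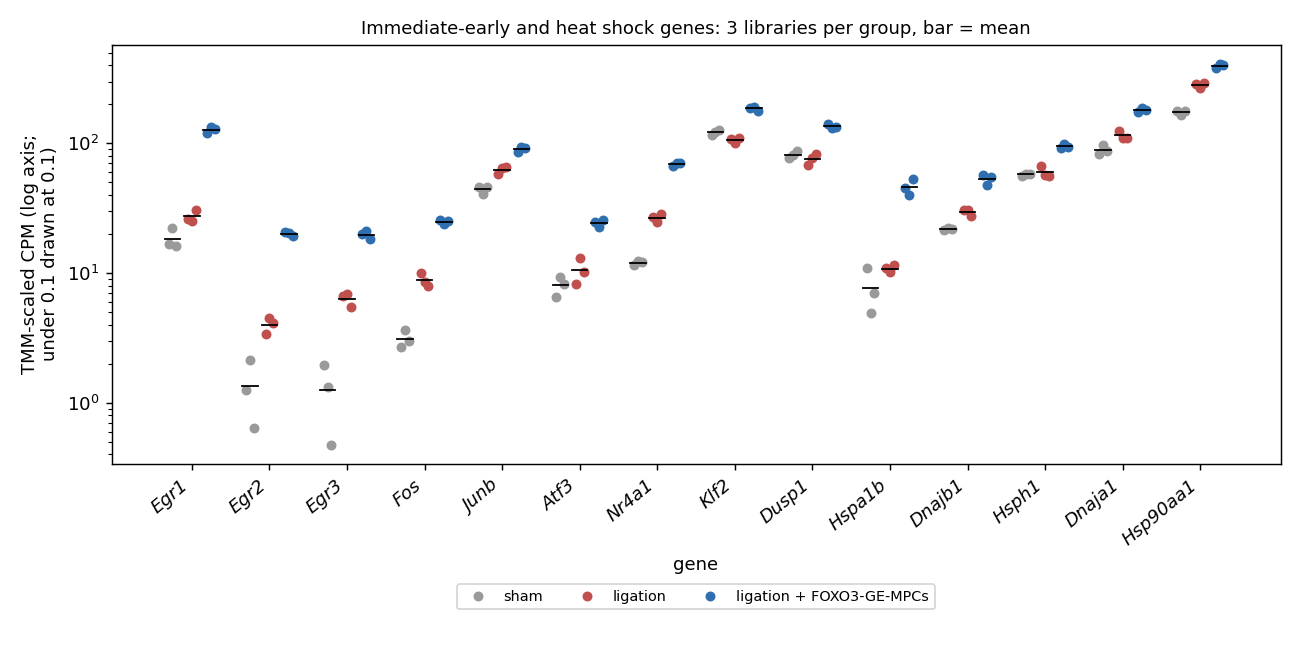
Level of 14 immediate-early and heat shock genes in each library (TMM-scaled CPM, logarithmic axis), in sham (grey), ligation (red) and ligation with FOXO3-GE-MPCs (blue); short bars are means of 3 libraries. For every gene shown the 3 blue points lie above the 3 red points, by the most for Egr1, Egr2 and Hspa1b.

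Heat shock proteins and their co-chaperones rose in 20 of 31 tested members and fell in 0, with a median of 0.25. Heat shock factor binds the heat shock element, searched here as TTCNNGAA, which its own reverse complement matches. Of 17 members that rose and have a RefSeq promoter 4 hold it (Chordc1, Hspd1, Hspe1 and Hsph1), 23.5% against 9.60% of all genes. Promoters of Hsph1 and of Hspd1, each at 1 of its annotated starts, are printed with the element in capitals, 250 bases before the start from RefSeq on GRCm38.p6.

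Hsph1 (chr5:149636337-149636586, minus strand): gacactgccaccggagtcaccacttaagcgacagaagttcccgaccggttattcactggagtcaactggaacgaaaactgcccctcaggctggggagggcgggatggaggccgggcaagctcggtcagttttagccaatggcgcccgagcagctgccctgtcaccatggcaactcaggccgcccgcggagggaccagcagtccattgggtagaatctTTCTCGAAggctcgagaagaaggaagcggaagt

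Hspd1 (chr1:55087933-55088182, minus strand): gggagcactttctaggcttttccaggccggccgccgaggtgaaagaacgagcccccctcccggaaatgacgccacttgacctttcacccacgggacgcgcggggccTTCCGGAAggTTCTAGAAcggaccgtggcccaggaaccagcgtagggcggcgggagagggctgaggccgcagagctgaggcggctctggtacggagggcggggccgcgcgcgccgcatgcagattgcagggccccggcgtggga

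Hsph1, a large chaperone of the HSP110 family, was at 56.1, 58.3 and 58.4 CPM in sham, 66.7, 57.2 and 56.00 with ligation and 92.8, 99.6 and 94.4 with cells (a log2 fold change of 0.68, SE 0.0707, adjusted p 9.84e-07). Dnajb1, a co-chaperone that delivers clients to HSP70, went from 30.7, 30.4 and 27.5 to 57.2, 47.6 and 55.3 CPM (a log2 fold change of 0.86, SE 0.0895, adjusted p 1.07e-06). Every cell library lay above every ligation and sham library in both genes. Dnaja1 rose 1.58-fold (a log2 fold change of 0.66, SE 0.0671, adjusted p 7.63e-07) and the cytosolic chaperone Hsp90aa1 1.41-fold (a log2 fold change of 0.49, SE 0.0521, adjusted p 1.4e-06), the latter with 51.4% of its 31-mers shared. The inducible HSP70 gene Hspa1b was at 10.9, 10.1 and 11.5 CPM with ligation and 45.2, 40.1 and 53.2 with cells (a log2 fold change of 2.09, SE 0.163, adjusted p 1.63e-08), and its near-identical neighbour Hspa1a at 2.45 ± 0.632 and 7.21 ± 0.771 CPM (a log2 fold change of 1.60, SE 0.345, adjusted p 0.00405). Of their 31-mers 68.00% and 65.4% also occur in another gene, so reads may be split between them, but both rose. The mitochondrial chaperone Hspd1 departed from the cytosolic ones in its sham level: it was at 339 ± 10.1 CPM in sham, 219 ± 18.2 with ligation and 272 ± 11.8 with cells (a log2 fold change of 0.32, SE 0.0579, adjusted p 0.000794). The endothelial and atrial sums and the shares of mitochondrially encoded genes and of reads outside genes moved with the heat shock list. Their part was not tested. The unfolded protein response serves the endoplasmic reticulum. Of its 33 tested members 1 rose, Atf3, and 3 fell, the largest being Sdf2l1, a chaperone partner of the endoplasmic reticulum, from 22.6, 22.1 and 21.2 to 10.4, 9.71 and 7.78 CPM (a log2 fold change of -1.24, SE 0.134, adjusted p 1.86e-06).

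Genes typical of the atrial chambers rose in 10 of 16 tested members and fell in 1, with a median of 0.45. Myl4 and Myl7 encode the atrial light chains of myosin. Myl4 (ENSMUSG00000061086) was at 195, 184 and 214 CPM in sham, 160.0, 139.6 and 133 with ligation and 494, 506 and 494 with cells (a log2 fold change of 1.79, SE 0.0651, adjusted p 3.24e-13). Myl7 was at 154, 155 and 164 CPM in sham, 102, 106 and 87.9 with ligation and 286, 297 and 315 with cells (a log2 fold change of 1.60, SE 0.0665, adjusted p 8.95e-13). Sarcolipin (Sln), an inhibitor of the calcium pump that atria make, went from 54.1, 55.7 and 56.4 to 195, 171 and 212 CPM (a log2 fold change of 1.80, SE 0.0772, adjusted p 1.13e-12), and Mybphl, a myosin-binding protein, from 17.05, 13.5 and 16.5 to 45.4, 45.9 and 45.8 CPM (a log2 fold change of 1.55, SE 0.129, adjusted p 4.22e-08). All 4 were higher in each cell library than in any ligation or sham library. Fgf12, which binds sodium channels, rose 3.34-fold (a log2 fold change of 1.74, SE 0.245, adjusted p 5.31e-05). Bmp10, a growth factor of the right atrium, went the other way, from 2.98, 4.78 and 4.13 to 0.567, 1.11 and 0.576 CPM (a log2 fold change of -2.39, SE 0.41, adjusted p 0.000473). The atrial peptide gene Nppa did not pass, at 1292, 829 and 564 CPM with ligation and 626, 1204 and 548 with cells (adjusted p 0.751 by edgeR). The list summed to 1409 to 1557 CPM in sham, 2570.5 to 3322 with ligation and 3829.8 to 4395 with cells. How much atrial tissue each sample held was not tested.

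**Figure D5:**
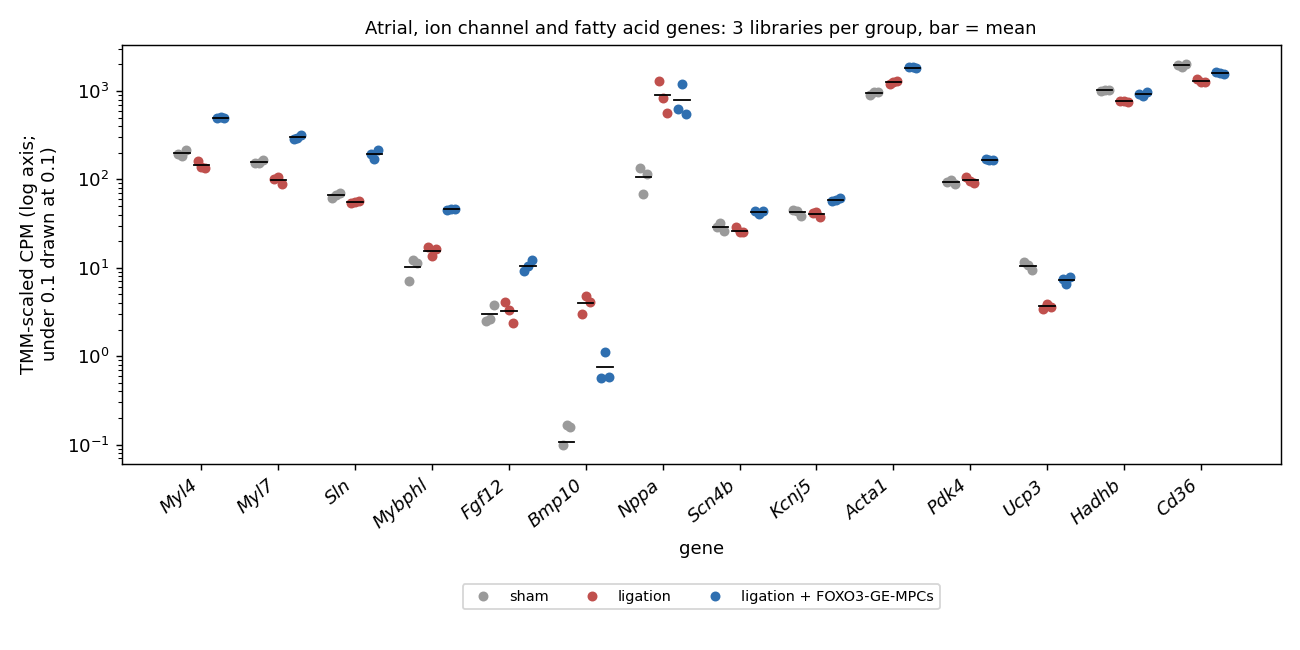
Level of 14 atrial, ion channel, contractile and fatty acid genes in each library (TMM-scaled CPM, logarithmic axis), in sham (grey), ligation (red) and ligation with FOXO3-GE-MPCs (blue); short bars are means of 3 libraries and values under 0.1 are drawn at 0.1. Blue points lie above red ones for all genes shown except Bmp10, where they lie below, and Nppa, where they overlap.

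Most contractile genes changed by less. Over the contractile and sarcomere list 11 of 30 tested members rose and 3 fell, Myl4 and Myl7 among those that rose, and leaving out 1 library at a time left 7 to 9 that rose. With library totals 7 rose and 6 fell. Acta1, the skeletal actin of the fetal programme, was at 907, 972 and 964 CPM in sham, 1209.6, 1257 and 1308 with ligation and 1846, 1854 and 1815 with cells (a log2 fold change of 0.55, SE 0.039, adjusted p 4.11e-09). Xirp1, a protein of intercalated discs, rose 1.36-fold (a log2 fold change of 0.44, SE 0.0557, adjusted p 1.47e-05). Titin (Ttn), the spring of the sarcomere, fell 1.16-fold (a log2 fold change of -0.21, SE 0.0354, adjusted p 0.000343), and desmin (Des), an intermediate filament from the mural cell list, from 3386 ± 52.3 to 2932 ± 39.1 CPM (a log2 fold change of -0.21, SE 0.0299, adjusted p 6.89e-05). In the natriuretic and hypertrophy list 5 of 22 rose and 2 fell (0 to 2 with 1 library left out). Ankrd1, a stretch-responsive protein of the heart, was at 1500.2 ± 82.7 CPM in sham, 5617 ± 153 with ligation and 6646 ± 95.9 with cells (a log2 fold change of 0.24, SE 0.0349, adjusted p 6.89e-05). The calcineurin inhibitor Rcan1 and the factor Gata4 rose by 0.31 and by 0.29 in log2 units (edgeR adjusted p 0.000254 and 0.00452). For Acta1, Ankrd1 and Rcan1 the implanted hearts lay farther from sham than the hearts with ligation alone.

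Calcium handling and ion channel genes rose in 14 of 35 tested members and fell in 1 (median 0.17). Leaving out 1 library at a time left 9 to 11 that rose, and 9 without ligation replicate 2. Sarcolipin led them, followed by Scn4b, a sodium channel subunit, at 28.6, 25.2 and 25.2 CPM with ligation and 43.8, 40.8 and 43.5 with cells (a log2 fold change of 0.71, SE 0.0949, adjusted p 3.14e-05). Kcnj5, a subunit of the acetylcholine-gated potassium channel and also an atrial list member, went from 40.7 ± 2.51 to 58.6 ± 1.96 CPM (a log2 fold change of 0.53, SE 0.0795, adjusted p 0.000114). Atp2a2, the calcium pump of the sarcoplasmic reticulum, was at 6704 ± 134 CPM in sham, 5167 ± 179 with ligation and 5811 ± 41.3 with cells (a log2 fold change of 0.17, SE 0.0288, adjusted p 0.000419), so the cell libraries sat between ligation and sham. The sodium-calcium exchanger Slc8a1 did not follow that order, with 31.5 ± 2.54 CPM in sham, 84.1 ± 2.49 with ligation and 109.6 ± 5.66 with cells (a log2 fold change of 0.38, SE 0.0661, adjusted p 0.000488). The atrial sum moved with this list, and its part was not tested.

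Fatty acid uptake and oxidation genes, which serve the main fuel of adult heart muscle, rose in 17 of 39 tested members and fell in 0 (median 0.19), though none rose at least 2-fold. Pdk4, the kinase that turns muscle from glucose to fat, was at 94.3, 97.2 and 89.2 CPM in sham, 106, 95.6 and 92.1 with ligation and 170.2, 165 and 168 with cells (a log2 fold change of 0.78, SE 0.0619, adjusted p 2.13e-08). Ucp3, a mitochondrial carrier, was at 11.6, 10.7 and 9.37 CPM in sham, 3.41, 3.91 and 3.63 with ligation and 7.52, 6.52 and 7.78 with cells (a log2 fold change of 0.98, SE 0.212, adjusted p 0.00389). The fatty acid transporter Cd36 was at 1962 ± 93.1, 1300.3 ± 71.7 and 1594 ± 38.9 CPM in the same order (a log2 fold change of 0.29, SE 0.0429, adjusted p 7.97e-05). Pdk4 rose above sham, while Ucp3 and Cd36 in the cell libraries stayed between ligation and sham. Acsl1, which activates fatty acids, and the trifunctional protein subunits Hadha and Hadhb rose 1.25-fold, 1.13-fold and 1.21-fold, the largest edgeR adjusted p of the 3 being 0.00281. Their sham means of 458, 995 and 1018 CPM were also above ligation, at 369 ± 5.76, 742 ± 15.6 and 768 ± 9.61 CPM. Adipocyte markers, which share Lpl with this list, summed to 4596 to 4939 CPM with ligation and 5265 to 5418 with cells, and their part was not tested. Cd36 is also in the endothelial list.

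Of 45 nuclear genes of its complexes 4 rose and 1 fell (2 to 7 rose with 1 library left out, and 2 with library totals). Of 15 mitochondrially encoded genes 4 rose and 1 fell (4 to 8 rose and 0 or 1 fell with 1 library left out). The 1 that fell was mt-Atp6, a subunit of ATP synthase, at 1229, 591 and 508 CPM with ligation and 330.1, 394 and 378 with cells (a log2 fold change of -1.07, SE 0.318, adjusted p 0.0361), with 99.5% of its 31-mers shared. It was not called without ligation replicate 1, where its log2 fold change was -0.58, or without any 1 of the cell replicates. mt-Co1, a subunit of cytochrome oxidase, went from 52792 ± 1467 to 60494 ± 974 CPM (a log2 fold change of 0.20, SE 0.0192, adjusted p 4.43e-07), with 63.9% of its 31-mers shared. mt-Cytb, cytochrome b, went from 22073 ± 1665 to 24759 ± 334 CPM (a log2 fold change of 0.17, SE 0.0338, adjusted p 0.00245), and its sham mean was 37195. Glycolysis and hypoxia genes fell in 11 of 37 tested members and rose in 1 (median -0.097). Pfkfb3, which sets the pace of glycolysis, fell from 33.7, 38.1 and 36.4 to 26.1, 23.3 and 23.05 CPM (a log2 fold change of -0.58, SE 0.0893, adjusted p 0.000145), and Ldha, lactate dehydrogenase, from 917 ± 8.53 to 803 ± 8.95 CPM (a log2 fold change of -0.19, SE 0.0387, adjusted p 0.00227). Egln3, an oxygen sensor that hypoxia induces, was at 92.2 ± 4.17 CPM in sham, 146 ± 5.92 with ligation and 105 ± 4.18 with cells (a log2 fold change of -0.48, SE 0.0602, adjusted p 1.49e-05). The 1 member that rose was the lactate carrier Slc16a1 (a log2 fold change of 0.41, SE 0.0521, adjusted p 1.42e-05).

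Most matrix genes that were called were lower. Of 30 structural members 6 fell (5 to 10 with 1 library left out) and 1 rose, and of 31 remodelling members 7 fell and 0 rose, with medians of -0.073 and -0.17. Col3a1, a fibrillar collagen, fell 1.17-fold (a log2 fold change of -0.23, SE 0.0374, adjusted p 0.000315) and stayed above its sham mean of 470.5 CPM, at 1049 ± 16.01 CPM. Emilin1, of elastic fibres, went from 112, 111 and 114 to 80.1, 79.8 and 84.4 CPM (a log2 fold change of -0.47, SE 0.0583, adjusted p 1.32e-05), back to the sham mean of 81.2. The protease inhibitor Timp1 fell from 58.4, 54.99 and 65.4 to 39.6, 40.8 and 40.6 CPM (a log2 fold change of -0.57, SE 0.0843, adjusted p 0.000102), and the stromelysin Mmp3 3.34-fold (a log2 fold change of -1.74, SE 0.251, adjusted p 7.02e-05). Fibromodulin (Fmod), a proteoglycan of tendon and cartilage, was the structural member that rose, from 23.2, 21.7 and 27.6 to 35.3, 38.8 and 43.1 CPM (a log2 fold change of 0.68, SE 0.109, adjusted p 0.000224). Among myofibroblast and matricellular genes 5 of 27 fell and 2 rose, and with library totals 8 fell and 1 rose. Tgfbi, a matrix protein that TGF-beta induces, fell 2.12-fold (62.2 ± 6.14 to 29.1 ± 2.35 CPM, a log2 fold change of -1.09, SE 0.0986, adjusted p 1.59e-07) and thrombospondin 1 (Thbs1) rose 1.55-fold (54.3, 51.7 and 53.6 to 81.7, 82.4 and 83.1 CPM, a log2 fold change of 0.63, SE 0.0748, adjusted p 6.17e-06). Macrophages also make Tgfbi and Spp1, which stands in both this list and theirs, and the part of the macrophage sum was not tested.

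Mesothelial and epicardial markers, from the cells that cover the heart, fell in 6 of 21 tested members and rose in 1 (3 to 5 fell with 1 library left out). Their sum overlapped between the groups, at 2166 to 2308 CPM with ligation and 2176 to 2210.3 with cells. Upk3b was at 14.6, 12.5 and 11.1 CPM in sham, 103, 113 and 135 with ligation and 79.3, 71.3 and 79.1 with cells (a log2 fold change of -0.62, SE 0.0857, adjusted p 4.12e-05), and the keratin Krt19 fell 1.72-fold (a log2 fold change of -0.79, SE 0.136, adjusted p 0.000521). Among nerve and Schwann cell markers Pmp22, a myelin protein, was at 123 ± 4.14 and 123 ± 5.95 CPM (adjusted p 0.987 by edgeR). The fatty acid synthase Fasn, an adipocyte marker, was at 40.05, 41.7 and 41.4 CPM in sham, 136, 138 and 151 with ligation and 232, 235 and 254 with cells (a log2 fold change of 0.76, SE 0.0588, adjusted p 1.42e-08). In all, 3 of 16 tested adipocyte markers rose (1 to 3 with 1 library left out) and 0 fell.

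Vessel genes were mixed. Endothelial identity genes rose in 5 of 30 tested members and fell in 4 (2 to 5 fell with 1 library left out). Cldn5, a tight junction protein of endothelium, was at 69.4, 57.7 and 60.8 CPM in sham, 37.7, 38.6 and 33.8 with ligation and 51.2, 63.9 and 56.3 with cells (a log2 fold change of 0.65, SE 0.0939, adjusted p 7.87e-05). Plvap, of leaky vessels, was at 40.3 ± 1.12 CPM in sham, 94.3 ± 5.32 with ligation and 68.4 ± 0.676 with cells (a log2 fold change of -0.47, SE 0.0635, adjusted p 3.65e-05), and Vwf, von Willebrand factor, fell 1.27-fold (a log2 fold change of -0.34, SE 0.0643, adjusted p 0.0012). For Cldn5 and Plvap the cell libraries moved from the ligation level towards sham. Of 31 tested angiogenic factors and receptors 3 were higher and 1 lower, and 1 or 2 were higher with 1 library left out. The 1 that fell was the arterial receptor Notch4, from 104, 118 and 115 to 84.8, 84.9 and 83.4 CPM (a log2 fold change of -0.42, SE 0.0649, adjusted p 0.000175). Lymphangiogenic Vegfc rose 1.47-fold (a log2 fold change of 0.56, SE 0.141, adjusted p 0.0135), but not without ligation replicate 3 or cell replicate 2.

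Mouse Foxo3 (ENSMUSG00000048756), a transcription factor of stress resistance, was at 73.3, 71.5 and 65.4 CPM in sham, 82.7, 84.1 and 81.6 with ligation and 73.05, 78.5 and 73.3 with cells and did not pass (a log2 fold change of -0.14, SE 0.0649, adjusted p 0.192). These counts are of the mouse gene and do not check the edit of the implanted cells, and whether reads from those cells enter them was not tested. Of 32 FOXO family members and targets 4 rose and 5 fell, and with 1 library left out at a time 2 to 4 rose and 1 to 4 fell. Pdk4 and the insulin receptor substrate Irs2 (14.2 ± 2.66 to 22.4 ± 2.52 CPM, a log2 fold change of 0.63, SE 0.146, adjusted p 0.00671) rose, and the coregulator Cited2 fell from 55.4, 55.7 and 56.4 to 39.1, 38.7 and 40.9 CPM (a log2 fold change of -0.50, SE 0.0732, adjusted p 8.94e-05). Antioxidant genes fell in 6 of 32 tested members and rose in 2 (1 or 2 rose with 1 library left out, and 1 with library totals). Heme oxygenase 1 (Hmox1), which macrophages and stressed cells make, went from 18.5, 20.98 and 19.8 to 10.2, 10.1 and 11.96 CPM (a log2 fold change of -0.88, SE 0.145, adjusted p 0.000301), and Ucp2, a carrier of mitochondria in immune cells, from 124 ± 4.46 to 69.4 ± 1.33 CPM (a log2 fold change of -0.83, SE 0.0594, adjusted p 4.29e-09). Sod3, the secreted superoxide dismutase, fell 1.36-fold (a log2 fold change of -0.45, SE 0.0605, adjusted p 3.28e-05), while the quinone reductase Nqo1 rose 1.31-fold (a log2 fold change of 0.39, SE 0.0836, adjusted p 0.00401). The macrophage sum moved with Hmox1 and Ucp2, and its part was not tested. Among CDK inhibitors, p53 targets and senescence genes 4 of 24 fell and 1 rose (0 or 1 rose with 1 library left out). Apoptosis regulators fell in 3 of 29 and rose in 0 (1 to 3 fell with 1 library left out), among them the survival gene Bcl2l1 (72.2 ± 2.9 to 56.8 ± 1.05 CPM, a log2 fold change of -0.34, SE 0.065, adjusted p 0.00125). The others that fell were Bmf and Bnip3, which promote cell death (log2 fold changes of -0.47 and -0.35, edgeR adjusted p 0.0471 and 0.0076).

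The largest changes across all genes rested partly on few counts. Gkn2, a secreted protein best known from the stomach, had 0 counts in all ligation and all sham libraries and 47 counts over the cell libraries, 1.56, 2.64 and 2.45 CPM, at least 3.47-fold above the 3 counts taken as detectable in the shallowest ligation library. Cldn23, a claudin, had 3 counts with ligation and 38 with cells, a ratio of 11.7 with a 95% counting interval of 3.72 to 59.3 (exact binomial). Parvalbumin (Pvalb) held 62 counts with ligation and 2 with cells, a ratio of 33.5 (8.90 to 283), and the fast muscle troponin Tnni2 held 51 and 9. In their list of fast skeletal muscle genes 3 of 11 tested members fell and 4 rose. Intervals cover counting error only. Chad, a cartilage protein, rose to 3.12, 0.971 and 3.75 CPM (a log2 fold change of 2.62, SE 0.622, adjusted p 0.00861) and was not called without ligation replicate 3 or cell replicate 3. Of 18 tested cartilage and tendon genes 3 rose and 2 fell (1 to 3 fell with 1 library left out, and 4 with library totals), of 17 mural cell genes 1 rose and 4 fell (0 rose and 1 to 3 fell with 1 library left out), and of 22 imprinted and fetal growth genes 0 rose and 4 fell. Rxfp1, the relaxin receptor, rose with more counts behind it, from 1.92, 2.17 and 1.88 to 6.67, 9.02 and 5.91 CPM (a log2 fold change of 1.85, SE 0.289, adjusted p 0.000183), as did hepcidin (Hamp), the hormone of iron balance, from 3.84, 1.88 and 2.12 to 9.79, 11.7 and 7.49 CPM (a log2 fold change of 1.95, SE 0.282, adjusted p 7.38e-05), with 33.7% of its 31-mers shared.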

How the data were processed

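The data are 9 RNA-seq libraries of mouse heart. The authors deposited unnormalized counts of reads per Ensembl gene, 1 file a library, aligned to build mm10 per the submitters' processing notes. Row names at the end of each file are those htseq-count writes. The aligner, the strand setting and the annotation are not given in the sources used here. Total RNA was taken with TRIzol and made into libraries with a NEBNext Ultra RNA kit, per the labels' protocols.

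The rows that name no gene were left out. In the 6 libraries compared 4.14% to 4.91% of reads lay outside genes and 8.31% to 8.72% were ambiguous between genes. Genes were kept by filterByExpr, scaled by TMM and tested with edgeR 4.0.16 (quasi-likelihood, R 4.3.3) over all 9 libraries as cells minus ligation, 2-sided, with Benjamini-Hochberg adjustment over 13825 genes and a threshold of 0.05. Every adjusted p is from this test. The SE is the size of the log2 fold change over the root of the F statistic. The fit has 6 residual degrees of freedom. The script was tested on simulated data. Shared 31-mers were counted against GENCODE M21 transcripts, and promoters came from RefSeq.

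Members and lists were chosen with earlier results of these data known. Named genes are up to 4 called members of a list by size of change, at a mean of at least 1 CPM in the higher group, made up to 2 with the list's most abundant tested members where fewer qualify, plus the 12 largest changes and the 5 most abundant called genes in each direction, and Foxo3. A further 33 genes were chosen after their values were seen. Some genes that these rules name are not reported here. Alternatives were library totals, RLE factors, other filters, DESeq2 1.42.0, limma-voom (limma 3.58.1), the 6 libraries compared alone, a replicate block, a 2-fold limit and each library left out. Summed header stems and removal of genes sharing 31-mers were added after seeing the data.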

Additional observations from a re-analysis of the deposited data

How the results depend on the processing

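The number of genes called was 1365. Apart from the 2-fold limit and the fits with 1 library left out, the other settings gave 1058 (DESeq2) to 1521 (without genes sharing 31-mers, added after seeing the data). No gene was called in the opposite direction under any setting. With library totals 32.0% of calls were higher against 42.4%. Requiring a 2-fold change left 314 genes, 54 higher and 260 lower, so that 17.2% were higher. Under that limit 1 MHC class I gene and 7 complement genes were lower, while 7 immediate-early, 2 heat shock, 5 atrial, 1 calcium and ion channel and 0 fatty acid genes were higher. Leaving out each library in turn left 951 to 1252 genes called, 587 to 721 lower and 364 to 531 higher, with 364 without ligation replicate 2 and 373 without ligation replicate 3. Calcium and ion channel genes called higher ranged from 9 to 11. The cause was not tested beyond the smaller number of libraries. Of 192 called genes named, 72 kept their call under every setting that tested them, and 1, Gm6311, turned direction. The settings include the 2-fold limit, which by its rule removes the call of every gene that changed by less. The 72 therefore depend on size of change as well as on stability. On the log2 scale and with each library left out, fold changes of 5 named genes crossed 0: Pmp22 from -0.020 to 0.040, Nppa from -0.60 to 0.19, Ccl2 from -0.25 to 0.14, Pcna from -0.12 to 0.018 and Gm6311 from -0.12 to 4.80. Of these only Gm6311 was called, and without cell replicate 1 it was at -0.12. Pmp22 was at -0.027 with library totals. Replicate numbers did not pair the samples: same-numbered libraries correlated at -0.04, -0.04 and 0.05 over 9414 genes, and the replicate block left 1230 genes called, 507 higher and 723 lower. Depth limits low genes, since 3 counts equal 0.375 to 0.639 CPM in these libraries.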

Other observations

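Among the 12 largest decreases, 4 genes outside the lists stepped down from sham to ligation to cells, Gm17428 on few counts (24 with ligation and 2 with cells) and 3 at higher levels. Gm4841 was at 287, 273 and 294 CPM in sham, 29.2, 34.1 and 37.8 with ligation and 3.12, 3.61 and 3.31 with cells (a log2 fold change of -3.34, SE 0.127, adjusted p 3.24e-13 for cells against ligation, edgeR). F830016B08Rik was at 64.8, 63.3 and 67.5 CPM in sham, 27.5, 42.1 and 39.9 with ligation and 4.11, 3.33 and 5.47 with cells (a log2 fold change of -3.11, SE 0.17, adjusted p 5.48e-11), and BC023105 at 54.6, 55.7 and 63.3 CPM in sham, 31.1, 31.4 and 27.8 with ligation and 5.67, 3.19 and 3.46 with cells (a log2 fold change of -2.86, SE 0.158, adjusted p 5.7e-11). The groups did not overlap in any of these genes. Of the 31-mers of Gm4841, F830016B08Rik and BC023105 18.4%, 6.61% and 29.3% also occur in another gene.

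Of 21 tested circadian clock genes 6 fell (Ciart, Dbp, Nr1d1, Per2, Per3 and Tef) and 2 rose, the activators Arntl and Clock (0 to 2 rose with 1 library left out). Dbp, an output factor, was at 63.7, 65.9 and 61.3 CPM in sham, 74.8, 80.6 and 86.9 with ligation and 57.7, 53.1 and 56.2 with cells (a log2 fold change of -0.54, SE 0.0702, adjusted p 1.95e-05), and the repressor Per3 at 29.9, 31.6 and 31.6 CPM in sham, 44.3, 46.6 and 41.00 with ligation and 33.2, 28.3 and 34.1 with cells (a log2 fold change of -0.46, SE 0.08997, adjusted p 0.00163). The activator Arntl was at 11.7, 9.23 and 11.3 CPM in sham, 3.41, 3.18 and 2.75 with ligation and 5.96, 5.27 and 7.63 with cells (a log2 fold change of 1.03, SE 0.241, adjusted p 0.00775), and was not called without cell replicate 3. For all 3 genes the mean with cells lay nearer to sham than the mean with ligation did.

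Gm6311 was called higher on 1 library: it was at 159, 2.08 and 3.17 CPM with cells and 1.7, 3.04 and 3.5 CPM with ligation, and 88.4% of its 31-mers are shared with other genes.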
